A study of Mus musculus with 6 samples.

Results

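*Tmem86b* encodes a lysoplasmalogenase, and it is described here in mouse liver together with its paralogue *Tmem86a* and 6 genes of ether lipid synthesis and breakdown: *Gnpat*, *Agps*, *Far1*, *Pex7*, *Tmem189* and *Agmo*. These 8 genes of the 21297 in the liver table were chosen by their measured values, because *Tmem86b* was among the genes with the lowest expression in MMAB ASO livers relative to CON ASO livers, and the other 7 were added for their place in the same pathway. The contrast that picked *Tmem86b* is the contrast described below, so the values of the 8 genes are a description and carry no test. Levels are given in CPM, the reads of a gene scaled to a common library total. The groups were compared over 11565 genes whose average over the 6 libraries was 1 CPM or more, which took in 7 of the 8, and *Far1* was below that level.

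The libraries came from 3 livers of mice given MMAB ASO, an antisense oligonucleotide directed at *Mmab*, and from 3 livers of mice given CON ASO, a control oligonucleotide. *Mmab* encodes the mitochondrial adenosyltransferase that makes adenosylcobalamin. All mice were male C57BL/6J on chow diet, 8 weeks old at the start, and received 50 mg/kg by weekly intraperitoneal injection for 6 weeks, and livers were taken 48 h after the last dose. The methods give an overnight fast before sampling unless stated otherwise. Every mouse therefore carried an oligonucleotide, and an untreated liver was not analysed here. The replicates are numbered 1, 2 and 4 in both groups, and p-values cover the spread between these 6 livers. A further index in the library labels is higher for MMAB ASO replicates 2 and 4 than for any CON ASO library. MMAB ASO replicate 1 has the same index as CON ASO replicate 1. The meaning of the index is not stated, so a difference in handling between the groups cannot be told apart from treatment. *Mmab* itself had 1.87, 2.69 and 1.80 CPM in MMAB ASO livers, against 6.31, 5.30 and 6.83 CPM in CON ASO livers. Its log2 fold change was -1.55 (SE 0.21, limma, Benjamini-Hochberg adjusted p = 0.00225), so all 3 libraries of each group matched their labels.

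Plasmalogens are glycerophospholipids with a vinyl ether bond in place of an ester bond on the first carbon of glycerol. Their synthesis starts in peroxisomes, where GNPAT and AGPS build the ether bond from a fatty alcohol that FAR1 supplies, and ends in the endoplasmic reticulum, where the desaturase encoded by *Tmem189* places the vinyl ether double bond. Once a phospholipase has removed the second acyl chain, TMEM86B hydrolyses the vinyl ether bond of the remaining lysoplasmalogen and releases a fatty aldehyde, whereas AGMO cleaves alkyl ether lipids that lack this double bond. Liver is known to make ether lipids and to hold little plasmalogen itself.

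The promoter windows of both paralogues are printed because *Tmem86b* and *Tmem86a* differed in the data, and their windows differ in base composition. Each runs from 250 bases before to 50 bases after the RefSeq start (GRCm38.p6), 5′ to 3′ on the strand of the gene, and capitals mark CpG sites. The *Tmem86b* window is chr7:4630433-4630732 on the minus strand, and the *Tmem86a* window is chr7:47050390-47050689 on the plus strand. The *Tmem86b* window lies within the span of the gene in GENCODE M21, short of its 5′ end there (4631422). Sequence at that farther upstream end was not examined, so the window may not describe every start of the gene.
Tmem86b: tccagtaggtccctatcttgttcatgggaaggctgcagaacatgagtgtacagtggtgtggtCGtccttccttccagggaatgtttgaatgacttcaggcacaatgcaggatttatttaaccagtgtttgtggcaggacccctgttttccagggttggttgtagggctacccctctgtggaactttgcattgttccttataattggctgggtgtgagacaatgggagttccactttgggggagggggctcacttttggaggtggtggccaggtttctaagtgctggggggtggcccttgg
Tmem86a: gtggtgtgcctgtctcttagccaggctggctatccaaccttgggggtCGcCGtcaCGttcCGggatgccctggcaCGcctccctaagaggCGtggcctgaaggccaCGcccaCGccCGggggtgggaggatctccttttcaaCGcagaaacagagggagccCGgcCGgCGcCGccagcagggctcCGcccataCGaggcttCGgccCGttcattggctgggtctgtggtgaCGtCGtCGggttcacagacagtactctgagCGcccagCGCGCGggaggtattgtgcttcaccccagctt
The *Tmem86b* window held 1 CpG site and 51.7% GC, while that of *Tmem86a* held 25 CpG sites and 66.0% GC. Over 32851 such windows of the mouse genome, the median was 7 CpG sites and 52.7% GC, and 14.1% of windows had at most 1 CpG site. The window of *Agmo* likewise held 1 site, at 39.7% GC. By contrast, the windows of the genes that build the ether bond were rich in CpG, with 33 sites for *Gnpat*, 32 for *Agps* and 28 for *Far1*, and *Pex7* had 14. A window of *Tmem189* was not used here, so 7 of the 8 genes matched.

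Short motifs were searched on both strands of the 7 windows. The CCAAT box (CCAAT) was present in *Tmem86b*, *Tmem86a*, *Agps*, *Far1* and *Pex7*, and in 37.4% of all windows. The GC box (GGGCGG) was present in *Tmem86a*, *Gnpat*, *Agps*, *Far1* and *Pex7*, and in 35.7% of all windows, but these letters were not in the window of *Tmem86b*. The E-box (CACGTG, 7.15% of all windows) was found for *Gnpat* and a STAT motif (TTCNNNGAA, 8.30%) for *Agmo*. The TATA element TATAAA (13.6% of all windows), the nuclear receptor half-site AGGTCA (16.3%), the D-box TTATGNAA (3.38%) and the sterol regulatory element TCACNCCAC (1.24%) were in 0 of the 7. These matches describe letters in a window and were not tested for binding.

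**Figure D1:**
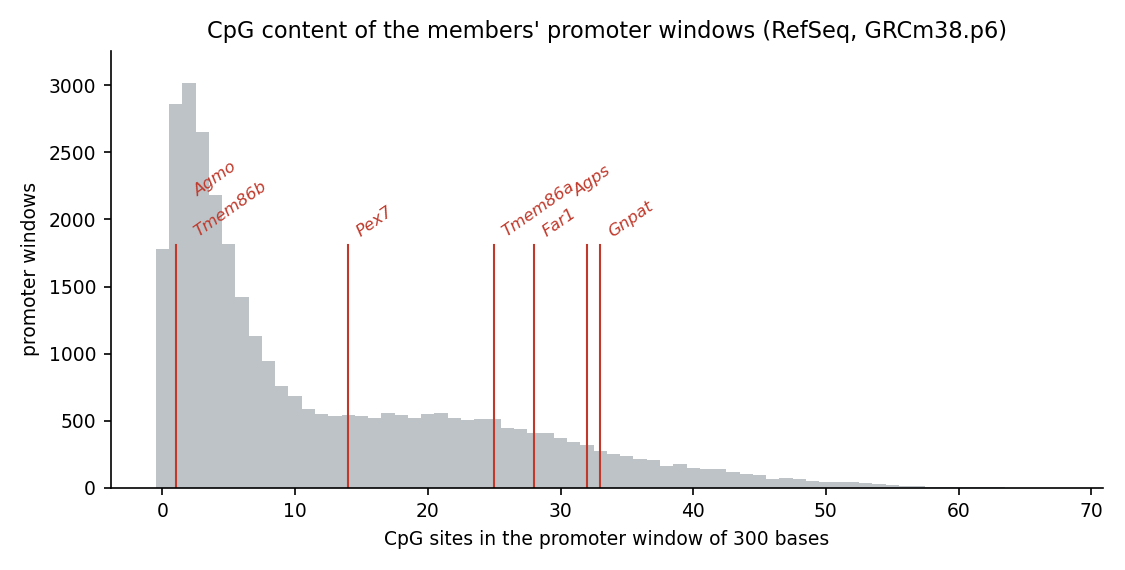
CpG sites per promoter window of 300 bases (x axis) against the number of RefSeq windows with that many sites (y axis, grey bars, 32851 windows). Red lines mark 7 of the 8 genes: *Tmem86b* and *Agmo* lie at 1 site, and *Tmem86a*, *Far1*, *Agps* and *Gnpat* between 25 and 33.

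*Tmem86b* (ENSMUSG00000045282.7, chr7:4628040-4631422, minus strand, up to 3 exons) had 4.85, 5.57 and 2.66 CPM in MMAB ASO livers, against 22.7, 18.2 and 25.4 CPM in CON ASO livers. The groups did not overlap: the highest MMAB ASO liver stood far below the lowest CON ASO liver, and MMAB ASO replicate 4 was the lowest of the 6. The means were 4.36 ± 1.52 CPM in MMAB ASO livers and 22.1 ± 3.65 CPM in CON ASO livers (SD, n = 3 each), which is 5.07-fold lower with MMAB ASO. On the log2 scale the difference was -2.40 (SE 0.24), the 20th lowest of the 11565 genes compared. Leaving out 1 liver at a time moved it between -2.61 (without MMAB ASO replicate 2) and -2.07 (without MMAB ASO replicate 4). From the estimated depth, *Tmem86b* rested on about 119 reads in the lowest library and 1293 in the highest. In whole liver, fewer cells of a type and less RNA per cell cannot be told apart.

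Around *Tmem86b*, the neighbouring gene *Ppp6r1*, a regulatory subunit of protein phosphatase 6, lies on the same strand (chr7:4631495-4659019), with its 3′ end 72 bases from *Tmem86b*. It had 42.1, 48.4 and 39.8 CPM in MMAB ASO livers, against 52.1, 50.5 and 46.9 CPM in CON ASO livers, and the groups overlapped (log2 fold change -0.20, SE 0.12, limma adjusted p = 0.439). On the other side the nearest gene in the table was *Tnnt1*, slow skeletal troponin T, 111657 bases away, with 0.168 to 0.241 CPM in MMAB ASO livers and 0.107 to 0.296 CPM in CON ASO livers. The antisense gene *Gm44877* overlaps *Tmem86b* (chr7:4626978-4630544, plus strand), and use of strand in the counting is not stated. *Gm44877* had at most 0.0650 CPM in MMAB ASO livers and at most 0.0361 CPM in CON ASO livers, and was listed at 0 in 1 library of each group.

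*Tmem86a* (chr7:47050601-47054777, plus strand) encodes the second lysoplasmalogenase of the family. It had 3.53, 4.68 and 4.34 CPM in MMAB ASO livers, against 4.58, 7.46 and 4.57 CPM in CON ASO livers. The groups overlapped, and CON ASO replicate 2 lay apart from the other 5 livers. The means were 4.18 ± 0.589 CPM in MMAB ASO livers and 5.54 ± 1.66 CPM in CON ASO livers (SD, n = 3 each), and the log2 fold change was -0.38 (SE 0.21). Without CON ASO replicate 2 it was -0.14.

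Since both paralogues act on lysoplasmalogens, their levels were set side by side per kilobase of exon. *Tmem86b* made up 57.5%, 54.0% and 37.6% of the summed *Tmem86b* and *Tmem86a* level in MMAB ASO livers, against 83.0%, 70.6% and 84.5% in CON ASO livers. The shares did not overlap, with a mean of 49.7 ± 10.6% in MMAB ASO livers and 79.4 ± 7.65% in CON ASO livers (SD, n = 3 each). Thus *Tmem86b* had on average 1.04 times the level of *Tmem86a* in MMAB ASO livers and 4.24 times in CON ASO livers. This share follows from the *Tmem86b* values that picked the genes, and was not tested.

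**Figure D2:**
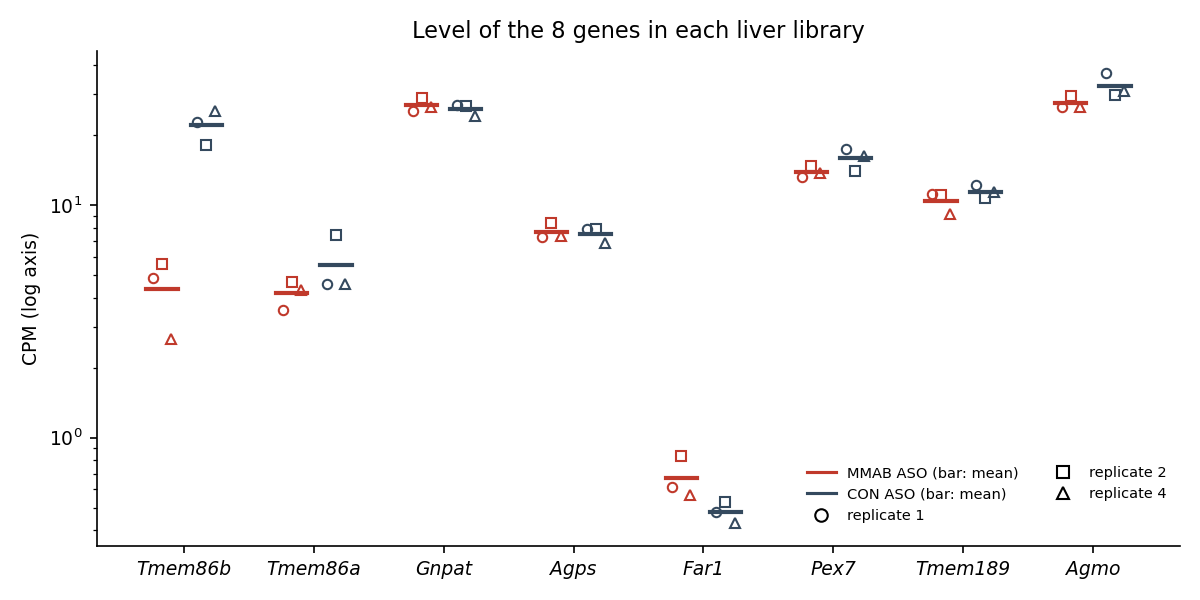
Level of the 8 genes in CPM (y axis, log scale) in each liver, with MMAB ASO in red to the left of CON ASO in dark blue, the replicate shown by the symbol and the group mean by a bar. For *Tmem86b* the 3 MMAB ASO livers lie between 2.66 and 5.57 CPM, below the 3 CON ASO livers at 18.2 to 25.4 CPM, whereas most of the other genes overlap between groups.

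The genes that build the ether bond were close in the 2 groups. *Gnpat* (chr8:124863033-124890057) encodes the acyltransferase of the first peroxisomal step and had 25.5, 29.0 and 26.3 CPM in MMAB ASO livers, against 27.1, 26.8 and 24.1 CPM in CON ASO livers. *Agps* (chr2:75832177-75931350), whose product swaps the acyl chain for a fatty alcohol, had 7.31, 8.38 and 7.37 CPM in MMAB ASO livers, against 7.87, 7.93 and 6.85 CPM in CON ASO livers. The groups overlapped for both genes. The log2 fold change was 0.05 (SE 0.12) for *Gnpat*, and 0.03 (SE 0.15) for *Agps*. Neither sign held under every scaling of the libraries. With a median-ratio scaling *Gnpat* was at -0.02 and *Agps* at -0.04. With quantile normalization they were at 0.07 and -0.01, and with protein-coding sum scaling at 0.14 and 0.12. At the start of *Gnpat* the gene *2810004N23Rik* overlaps it on the opposite strand, with 12.7 to 15.3 CPM in MMAB ASO livers and 12.8 to 13.9 CPM in CON ASO livers, so reads of that stretch are uncertain.

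*Far1* (chr7:113513834-113571511) encodes the fatty acyl-CoA reductase that supplies the alcohol, a rate-limiting step of plasmalogen synthesis. It was low, with 0.616, 0.835 and 0.566 CPM in MMAB ASO livers, against 0.478, 0.531 and 0.429 CPM in CON ASO livers. The groups did not overlap and the MMAB ASO livers were higher, but these values stand for about 21.8 to 38.5 reads per library. The log2 fold change was 0.47 (SE 0.31), and with 1 CPM added to each value before the logarithm it was 0.17.

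*Pex7* (chr10:19853900-19907689) encodes the receptor that carries AGPS into peroxisomes. It had 13.3, 14.8 and 13.8 CPM in MMAB ASO livers, against 17.5, 14.0 and 16.3 CPM in CON ASO livers, with overlap through CON ASO replicate 2. Its log2 fold change was -0.19 (SE 0.14).

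*Tmem189* (chr2:167642608-167689822), the plasmanylethanolamine desaturase also named Peds1, had 11.1, 11.1 and 9.14 CPM in MMAB ASO livers, against 12.2, 10.8 and 11.3 CPM in CON ASO livers. The groups overlapped, and the log2 fold change was -0.13 (SE 0.14). Reads of *Tmem189* are uncertain because *Gm20431* (chr2:167607850-167661496) overlaps it on the same strand and *Cebpb*, a liver transcription factor, overlaps its start on the other strand. *Gm20431* had 0.728, 1.36 and 0.235 CPM in MMAB ASO livers, against 0.307, 0.158 and 0.519 CPM in CON ASO livers. *Cebpb* was more abundant than *Tmem189*, with 47.9 to 91.9 CPM in MMAB ASO livers and 39.3 to 58.5 CPM in CON ASO livers.

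*Agmo* (chr12:37241641-37582202), the tetrahydrobiopterin-dependent alkylglycerol monooxygenase, had 26.5, 29.5 and 26.4 CPM in MMAB ASO livers, against 36.9, 29.7 and 30.8 CPM in CON ASO livers. The groups did not overlap, though MMAB ASO replicate 2 and CON ASO replicate 2 nearly met. The means were 27.5 ± 1.76 CPM in MMAB ASO livers and 32.5 ± 3.90 CPM in CON ASO livers (SD, n = 3 each), and the log2 fold change was -0.24 (SE 0.13). Without CON ASO replicate 1 it was -0.14.

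Read over all 8 genes, 5 had a log2 fold change below 0 and 3 above 0, and 5 lay within 0.25 of 0. Of the 7 compared, 0 were called higher and 1, *Tmem86b*, was called lower at a limma adjusted p under 0.05. Across the 11565 genes, 1.87% (216) were called higher and 2.22% (257) lower. Groups did not overlap for 0 of the 7 in the higher direction and for 2 of the 7 in the lower, namely *Tmem86b* and *Agmo*, while 13.8% of all genes compared were separated higher and 8.91% lower. Because this contrast picked *Tmem86b*, nothing is read from these counts. The median log2 fold change was -0.19 over the 7 genes and 0.03 over all genes compared.

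Per kilobase of exon, the order of the 8 levels differed between the groups only in the place of *Tmem86b*. This difference follows from the *Tmem86b* values that picked the genes, and was not tested. In MMAB ASO livers the order was *Gnpat*, *Agmo*, *Tmem189*, *Tmem86b*, *Tmem86a*, *Pex7*, *Agps* and *Far1*, whereas in CON ASO livers *Tmem86b* came first and the other 7 kept their order. *Tmem86b* reached 2.27 ± 0.791 CPM per kilobase in MMAB ASO livers and 11.5 ± 1.90 CPM per kilobase in CON ASO livers (SD, n = 3 each). Next to it stood *Gnpat*, at 7.51 ± 0.515 and 7.24 ± 0.459 CPM per kilobase in MMAB ASO and CON ASO livers (SD, n = 3 each). *Agmo* had 4.29 ± 0.276 CPM per kilobase in MMAB ASO livers and 5.08 ± 0.610 in CON ASO livers (SD, n = 3 each). *Far1* closed the order, at 0.0835 ± 0.0177 CPM per kilobase in MMAB ASO livers and 0.0595 ± 0.00634 in CON ASO livers (SD, n = 3 each). Some neighbours did not differ beyond their spread. In MMAB ASO livers *Tmem86b* (1.39 to 2.91) overlapped both *Tmem86a* (1.87 to 2.48) and *Tmem189* (2.80 to 3.41). In CON ASO livers *Tmem189* (3.30 to 3.74) and *Tmem86a* (2.42 to 3.95) overlapped. With the longest transcript in place of all exons, *Agmo* stood before *Gnpat* in CON ASO livers, and *Tmem86b* stayed first.

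**Figure D3:**
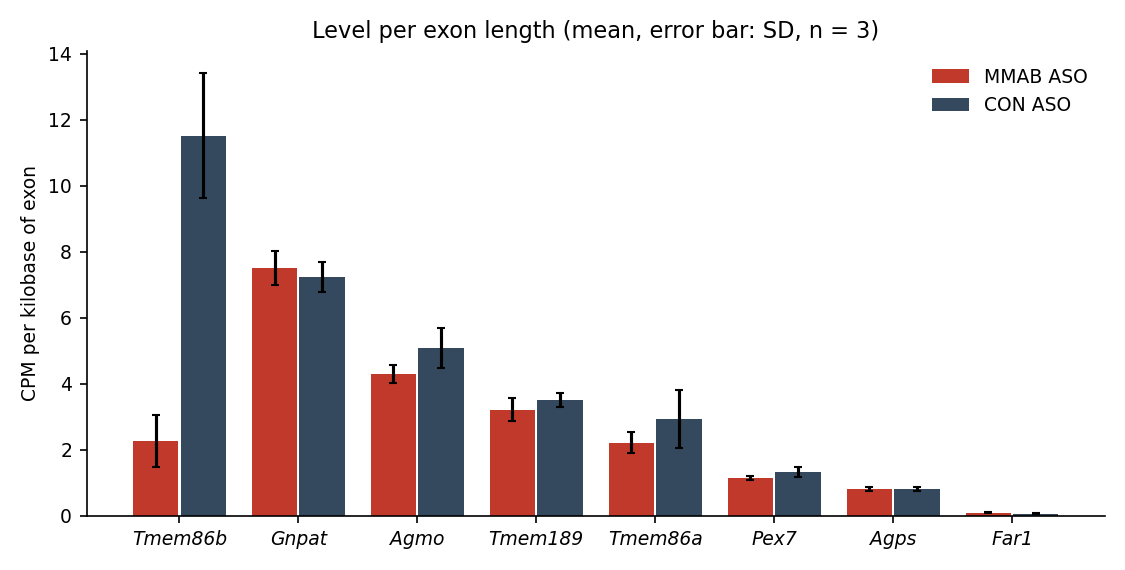
Mean level per kilobase of exon (y axis, CPM per kilobase, bars starting at 0) of the 8 genes, with MMAB ASO in red to the left of CON ASO in dark blue and error bars for the SD (n = 3 each). *Tmem86b* is at 2.27 with MMAB ASO and 11.5 with CON ASO, and the bars of the other 7 genes stay near each other. The *Tmem86b* difference is the one that picked the genes.

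To name the genes whose pattern was most like that of *Tmem86b*, the log2 values of each gene were centred on its own mean, and the root mean square difference from *Tmem86b* over the 6 libraries was taken for 7501 genes that averaged 5 CPM or more. The nearest was *Car14*, a membrane carbonic anhydrase, at 0.273 log2 units. It had 3.45, 3.13 and 2.72 CPM in MMAB ASO livers, against 19.9, 14.3 and 17.6 CPM in CON ASO livers. Next came *Adora1*, the adenosine A1 receptor, at 0.413, with 3.90, 2.75 and 2.37 CPM in MMAB ASO livers and 19.5, 19.7 and 13.3 CPM in CON ASO livers. *Flvcr2*, a choline transporter, followed at 0.425, with 2.70, 3.60 and 2.35 CPM in MMAB ASO livers and 9.39, 9.85 and 9.03 CPM in CON ASO livers. The metallothionein gene *Mt1* stood at 0.436 and *Ikbkb*, a kinase of the NF-kappa B pathway, at 0.444. In MMAB ASO replicate 4, each of these 5 lay above the centred value of *Tmem86b*, as the plot of centred profiles shows. The 5 genes were picked for this likeness and share libraries and depth with *Tmem86b*, so the likeness is a description.

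**Figure D4:**
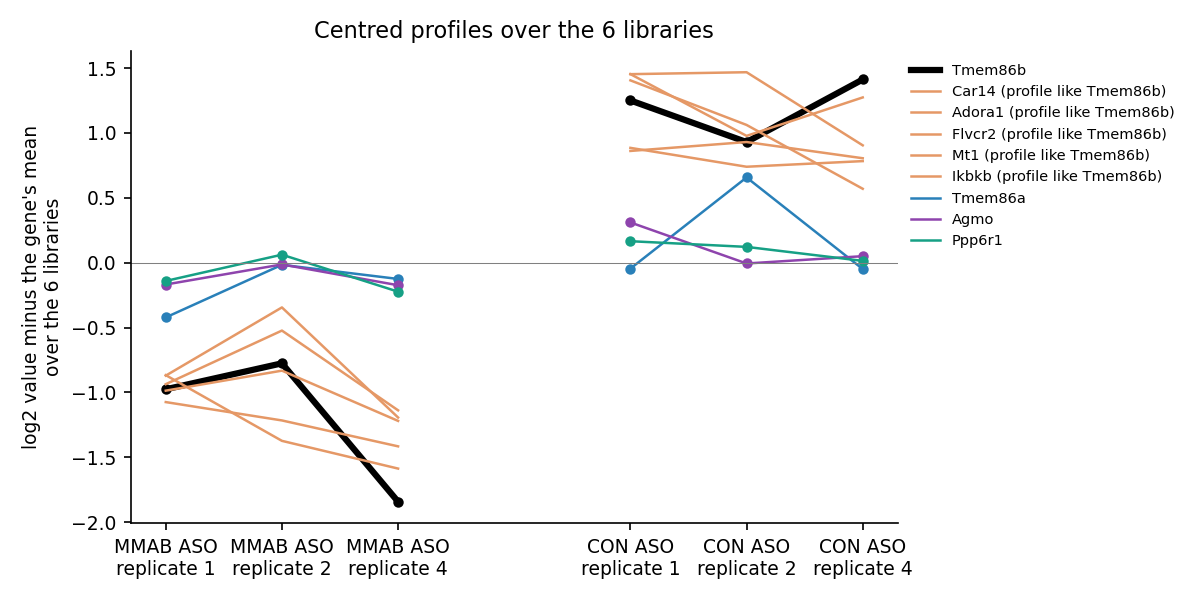
Log2 level minus the mean of the gene over the 6 libraries (y axis) in the 3 MMAB ASO livers and, to their right, the 3 CON ASO livers. Lines only trace a gene across livers, which have no order: *Tmem86b* (black) and the 5 genes nearest to it (orange) lie below 0 in every MMAB ASO liver and above 0 in every CON ASO liver, while *Tmem86a*, *Agmo* and the neighbour *Ppp6r1* lie closer to 0. The 5 genes were picked for their likeness to *Tmem86b* in these livers.

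The question next addressed was how the other genes of ether lipid metabolism stood in the same livers. Lists for 7 neighbouring processes held 113 symbols, of which 109 were in the table and 99 were compared. Among these 99, 2 (2.02%) were called higher and 6 (6.06%) lower with MMAB ASO, beside the 1.87% and 2.22% of all genes compared. The log2 fold change was below 0 for 75 of the 99 and above 0 for 24, with a median of -0.18, against 0.03 over all genes. Groups did not overlap for 20 of the 99 in the lower direction and for 3 in the higher, beside 8.91% and 13.8% of all genes. The counts rest on few livers: without MMAB ASO replicate 4, 0 were called higher and 1 lower, without CON ASO replicate 4, 0 and 2, and without MMAB ASO replicate 2, 1 and 12.

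Headgroup and ether lipid synthesis had 16 genes compared, with 0 called higher, 1 lower and a median log2 fold change of -0.13. *Etnk2*, the liver-enriched ethanolamine kinase that opens the CDP-ethanolamine pathway, fell. It had 113, 98.9 and 76.3 CPM in MMAB ASO livers, against 156, 159 and 185 CPM in CON ASO livers. The groups were well apart, with a log2 fold change of -0.81 (SE 0.15, limma adjusted p = 0.0136). The call was lost without MMAB ASO replicate 4 and without CON ASO replicate 4, where the adjusted p reached 0.0758 at most. Its paralogue *Etnk1* was at -0.55 (adjusted p = 0.0934), with overlap of the groups. *Pemt*, which methylates phosphatidylethanolamine to phosphatidylcholine, was at -0.37 (adjusted p = 0.107), and the lipid phosphatase *Plpp1* was at 0.95 (adjusted p = 0.139).

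Among enzymes that remodel or degrade ether lipids and their lysophospholipids, 15 were compared, and 1 was called higher and 2 lower (median log2 fold change -0.15). *Enpp2*, which encodes autotaxin, the secreted lysophospholipase D that makes lysophosphatidic acid, had 17.2, 21.9 and 18.3 CPM in MMAB ASO livers, against 38.7, 33.4 and 36.5 CPM in CON ASO livers. Every MMAB ASO liver stood below every CON ASO liver, and *Enpp2* fell by 0.93 on the log2 scale (SE 0.13, limma adjusted p = 0.00347), a call kept under all 16 alternative settings, with a highest adjusted p of 0.0265. *Pnpla7*, a lysophospholipase, had 20.7, 39.3 and 26.4 CPM in MMAB ASO livers, against 48.2, 49.7 and 43.8 CPM in CON ASO livers. It was called narrowly, at -0.76 (SE 0.19, limma adjusted p = 0.0491), and passed in 1 of 6 fits that left out a liver. *Pla2g7*, the macrophage-derived platelet-activating factor acetylhydrolase, was called higher, with 2.63, 1.77 and 2.50 CPM in MMAB ASO livers, against 1.37, 0.994 and 0.667 CPM in CON ASO livers. Its log2 fold change was 1.23 (SE 0.30, limma adjusted p = 0.0443), and it passed in 3 of 6 such fits.

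For tetrahydrobiopterin, the cofactor of AGMO, 8 genes were compared, of which 0 were called higher and 1 lower (median log2 fold change -0.16). *Pcbd2*, a pterin carbinolamine dehydratase that serves cofactor recycling, had 1.12, 1.38 and 0.816 CPM in MMAB ASO livers, against 2.88, 3.04 and 2.40 CPM in CON ASO livers. It was low in all 6 livers but clearly separated, and fell by 1.35 on the log2 scale (SE 0.25, limma adjusted p = 0.0132). Without MMAB ASO replicate 4 the adjusted p was 0.0563. *Qdpr*, the reductase of the same cycle, was at -0.47 (adjusted p = 0.0879). Of the 8 fatty aldehyde enzymes compared, 0 were called in limma and 1 had an unadjusted p under 0.05 (median log2 fold change -0.10). *Aldh3a2*, the main fatty aldehyde dehydrogenase, was at -0.47 (adjusted p = 0.462) and *Aldh1a1* at 0.57 (adjusted p = 0.264), both with overlap.

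Peroxisome biogenesis counted 15 genes, with 0 called higher, 1 lower and a median log2 fold change of -0.19. *Pex11g*, a gene of peroxisome division, had 15.6, 15.1 and 15.1 CPM in MMAB ASO livers, against 23.1, 20.2 and 21.8 CPM in CON ASO livers. The groups were tight and separate, with a log2 fold change of -0.51 (SE 0.12, limma adjusted p = 0.0423), although 0 of 6 fits with 1 liver left out passed. *Pex5*, the import receptor that works with PEX7, was at -0.37 (adjusted p = 0.183). Peroxisomal enzymes and carriers counted 25 genes, with 0 called higher, 1 lower and a median of -0.25. That gene was *Abcd2*, a carrier of very long chain acyl-CoA, with 0.995, 4.33 and 1.50 CPM in MMAB ASO livers, against 4.19, 12.2 and 7.87 CPM in CON ASO livers. Here MMAB ASO replicate 2 overlapped CON ASO replicate 1, and the log2 fold change of -1.99 (SE 0.48, limma adjusted p = 0.0396) passed in 3 of 6 fits without a liver. The thiolase *Acaa1a* was at -0.48 (adjusted p = 0.0902).

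Liver X receptor target genes, the last list, had a median log2 fold change of -0.03 over 13 genes, with 1 called higher and 0 lower. *Mylip*, the ubiquitin ligase that directs the LDL receptor to degradation, had 6.11, 6.82 and 5.95 CPM in MMAB ASO livers, against 4.30, 2.69 and 2.80 CPM in CON ASO livers. It rose by 0.98 on the log2 scale (SE 0.20, limma adjusted p = 0.0201) and passed in 3 of 6 fits without a liver. *Abca1*, the cholesterol exporter of the same list, was at -0.45 (adjusted p = 0.144), and the acyltransferase *Lpcat3*, which is also in the remodelling list, at -0.39 (adjusted p = 0.181).

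**Figure D5:**
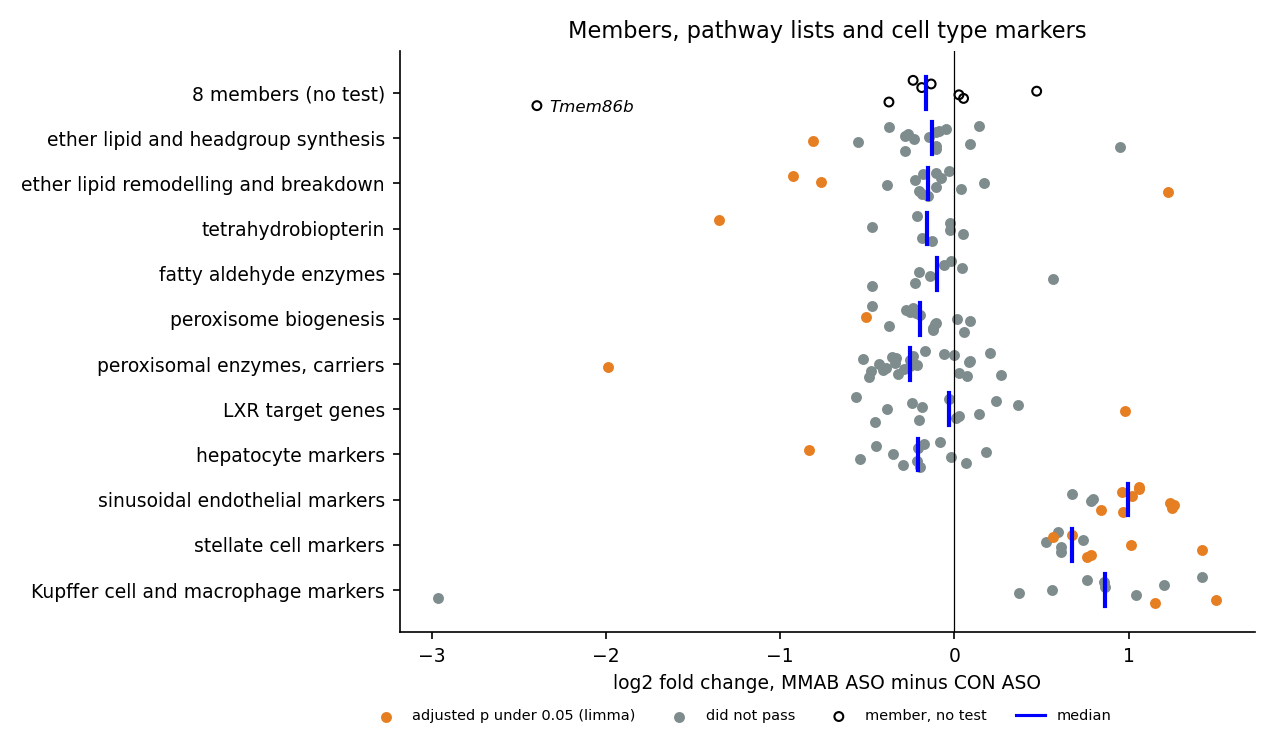
Log2 fold change of MMAB ASO over CON ASO (x axis) for the 8 genes (open circles, no test), 7 pathway lists and 4 marker lists (rows), with orange points at a limma adjusted p under 0.05 and blue bars at each row's median. *Tmem86b* lies at -2.40, apart from the other 7 genes. The medians of the pathway lists run from -0.25 to -0.03, beside -0.21 for hepatocyte markers and 0.68 to 0.99 for endothelial, stellate and macrophage markers.

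Summed levels of endothelial and stellate cell markers were separate between the groups, while those of the other cell types in whole liver overlapped. Of 13 hepatocyte markers, 11 were below 0 and the median log2 fold change was -0.21, with summed levels of 54951 to 69293 CPM in MMAB ASO livers and 63501 to 74565 CPM in CON ASO livers. Of 12 sinusoidal endothelial markers, 9 were called higher (median 0.99), with sums of 112 to 129 CPM in MMAB ASO livers and 50.7 to 76.3 CPM in CON ASO livers. Stellate cell markers had 6 of 11 called higher (median 0.68), with sums of 152 to 181 CPM in MMAB ASO livers and 89.8 to 120 CPM in CON ASO livers. Kupffer cell and macrophage markers had 2 of 11 called higher (median 0.87), with sums of 65.0 to 113 CPM in MMAB ASO livers and 29.6 to 105 CPM in CON ASO livers. In the same list *Marco*, a macrophage scavenger receptor, ran the other way, with 0.426, 0.134 and 0.380 CPM in MMAB ASO livers, against 15.7, 0.813 and 0.805 CPM in CON ASO livers. CON ASO replicate 1 was far above the other 5, and *Marco* was not called (log2 fold change -2.96, SE 0.93, limma adjusted p = 0.108). For cholangiocytes 3 of 8 markers were compared, with 1 (*Spp1*) called higher, 2 below 0 and a median log2 fold change of -0.04. Their sums were 30.9 to 42.0 CPM in MMAB ASO livers and 22.4 to 34.3 CPM in CON ASO livers. Lymphocyte markers summed to 1.17 to 2.25 CPM in MMAB ASO livers and 1.58 to 2.22 CPM in CON ASO livers, and none of the 10 reached the level for comparison. No marker of any list was at 0 in all livers. The hepatocyte median lies near the pathway medians, and *Pla2g7* moved in the direction of 10 of the 11 macrophage markers compared, but the part of cell makeup in any of these results was not tested. CON ASO replicate 1 stood apart in its protein-coding genes, which summed to 57.0% of the library total that CPM refers to. In the other 5 libraries they summed to 46.2% to 51.1% of that total. All 21297 genes summed to only 635147 to 682884 CPM per library, so these percentages are not shares of the listed values. Without CON ASO replicate 1, *Tmem86b* stayed within the range given above.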

How the data were processed

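RNA was measured in 6 mouse livers, 3 with MMAB ASO and 3 with CON ASO, grouped by GEO's labels. Per the labels and the study's methods, ribosomal RNA was depleted, reads were aligned with STAR in Partek and abundance was estimated by expectation maximisation. The labels name a small RNA library kit, and use of strand is not stated. The deposited values are log2 of CPM, scaled by the authors to each library's total with 0.0001 added, and fold changes are on that scale. Steps between low values put each library at an estimated 44.7 to 55.4 M reads, with 0.0181 to 0.0224 CPM to a read. Only 58.4% to 59.9% of values up to 20 reads were whole (tolerance 0.01), so a test for counts was not run.

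Genes averaging 1 CPM or more over the 6 libraries (11565) were compared with limma 3.58.1 in R 4.3.3 (trended variance prior, no covariates), with Benjamini-Hochberg adjustment over all of them at 0.05. The code was tested on simulated data. Coordinates follow GENCODE M21 (GRCm38), since 93.7% of the 20467 symbols found there had the same coordinates in the table. Promoter sequences came from RefSeq.

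The 8 genes and all lists were chosen with earlier results of these data known. Named genes were the 8 members, every called gene of the lists with up to 3 more of each by adjusted p, overlapping or neighbouring genes, the 5 profiles nearest to *Tmem86b*, and *Mmab*. Among these, the text gives those that its comparisons use. In all, 16 alternative settings were fitted, covering pseudocounts, filters, scalings, the variance model, a replicate block and each liver left out.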

Additional observations from a re-analysis of the deposited data

How the results depend on the processing

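*Tmem86b* was below 0 in all 16 alternative settings, between -2.61 and -2.07 on the log2 scale, and first in the CON ASO order of levels with either length. Of 125 recomputed values of the 8 genes, 1 moved by more than the spread between livers, that of *Far1* with a pseudocount of 1 (0.17). Both counts include settings that could not move a fold change, namely the filters, the prior without a trend and the replicate block. Under these, each value equals that of the main fit. The number of genes called depended more on the setting, and the cause was not tested. Across all genes, the 216 called higher became 106 with no filter, 92 with a mean of at least 5 CPM, 416 with protein-coding sum scaling and 393 with array weights, and 46 to 242 with a liver left out. The 257 called lower became 149 with no filter, 397 with median-ratio scaling and 149 with no trend in the variance prior, and 108 to 312 with a liver left out. Higher calls were 45.7% of 473 calls, against 26.8% of 542 with median-ratio scaling, 65.7% of 633 with protein-coding sum scaling and 34.3% of 268 with a mean of at least 5 CPM. In the pathway lists, the 2 higher calls became 1 with no filter, median-ratio scaling, quantile normalization or no trend. They became 0 to 2 with a liver left out. With a mean of at least 5 CPM there were 0, since *Pla2g7* and *Mylip* average less and were left out by that filter. The 6 lower calls became 3 with no filter or no trend, 11 with median-ratio scaling, and 1 to 12 with a liver left out. The replicate numbers did not pair the livers, since deviations of same-numbered livers correlated at -0.02, 0.05 and -0.01. A replicate block gave 180 genes higher and 250 lower, and 1 higher call in the pathway lists. With 3 livers per group, differences as small as those of *Gnpat* and *Agps* lay within the spread between livers, and *Far1* was limited by its read number.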
